A study of Saccharomyces cerevisiae with 9 samples.

Results

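Yeast cells that live on an analog-sensitive (AS) Ypk1 or Ypk2 were compared with cells that live on the wild-type (WT) kinase at 0 min, the start of the inhibitor treatment. The material was 2 arrays of the 9 in the series, the Ypk1 and the Ypk2 array labelled 0 min, each with a ratio for 6268 features. The members were taken by their labels, and each array was centred on its own median. All strains carried the deletions ypk1 delta ypk2 delta and lived on a single plasmid-borne kinase, WT or AS, in SCD-Leu, a synthetic medium without leucine. On each 0 min array Cy3 marked polyA RNA of the WT cells and Cy5 that of the AS cells. The Ypk1 arrays bear the inhibitor 2,3-DMB-PP1 (0.5 µM) in both channels and the Ypk2 arrays 3-MB-PP1 (1 µM), with later arrays at 15, 30 and 60 min. The ninth array set WT Ypk2 (Cy5) against WT Ypk1 (Cy3) without inhibitor. Each condition has 1 array and no dye swap, so a difference between the AS and WT strains and a difference between the dyes cannot be told apart.

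Ypk1 and Ypk2 are related protein kinases of the AGC family that act below the TORC2 complex at the plasma membrane. They control sphingolipid synthesis, membrane lipid asymmetry and the response to membrane and cell wall stress, and a cell needs at least one of them. An AS allele has a changed ATP pocket that admits a bulky inhibitor to which the WT enzyme is blind. The comparison at 0 min gives the difference between AS and WT cells at the start of the treatment. In RNA of a whole culture, a change in every cell and a change in the share of cells in one state cannot be told apart.

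The kinase genes were read first as a check of the plasmids. YPK1 stood at a log2 ratio of 0.73 on the Ypk1 0 min array and at -0.10 on the Ypk2 0 min array. YPK2 stood at 0.25 and 1.06. On each 0 min array the gene of the kinase on the plasmids was therefore higher in the AS than in the WT channel, by more than 0.58, and the other kinase gene was not. On the later arrays this did not hold throughout, since YPK2 was at 1.42, 0.52 and 0.94 in the Ypk1 series, whose strains lack the gene, beside 0.82, 2.44 and 1.55 for YPK1. In the Ypk2 series YPK2 was at 1.36, 1.53 and 1.36 and YPK1 at 0.20, 0.11 and -0.62. On the WT array YPK1 was at -4.33 and YPK2 at 5.49. The direction of the ratios was read from these values and the channel labels, so they are no check of it. The same direction was assumed for the 0 min arrays. The standard deviation over features was 0.53 and 0.47 on the 0 min arrays, 0.52 on the WT array and 0.67 to 0.94 on the 6 later arrays.

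A threshold of 0.58 on the log2 scale, a 1.5-fold difference, was used to describe each array. On the Ypk1 0 min array 719 features were higher by this size (11.5% of all) and 465 were lower (7.42%). On the Ypk2 0 min array 769 were higher (12.3%) and 304 were lower (4.85%). Both arrays shared 267 higher features, 4.26% of all features, which is 37.1% of the Ypk1 list and 34.7% of the Ypk2 list. They shared 22 lower features, 0.351% of all, 4.73% of the Ypk1 list and 7.24% of the Ypk2 list. The shared features were thus higher in 92.4% of cases, and in 75.1% with arrays scaled to one spread and 69.0% after quantile normalization. YDL241W (0.58 on both arrays) and PMP2 (0.58 and 1.51) lay just inside the threshold, and GRX4 (-0.61 and -0.58) and YER039C-A (-0.60 and -0.58) just outside.

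**Figure D1:**
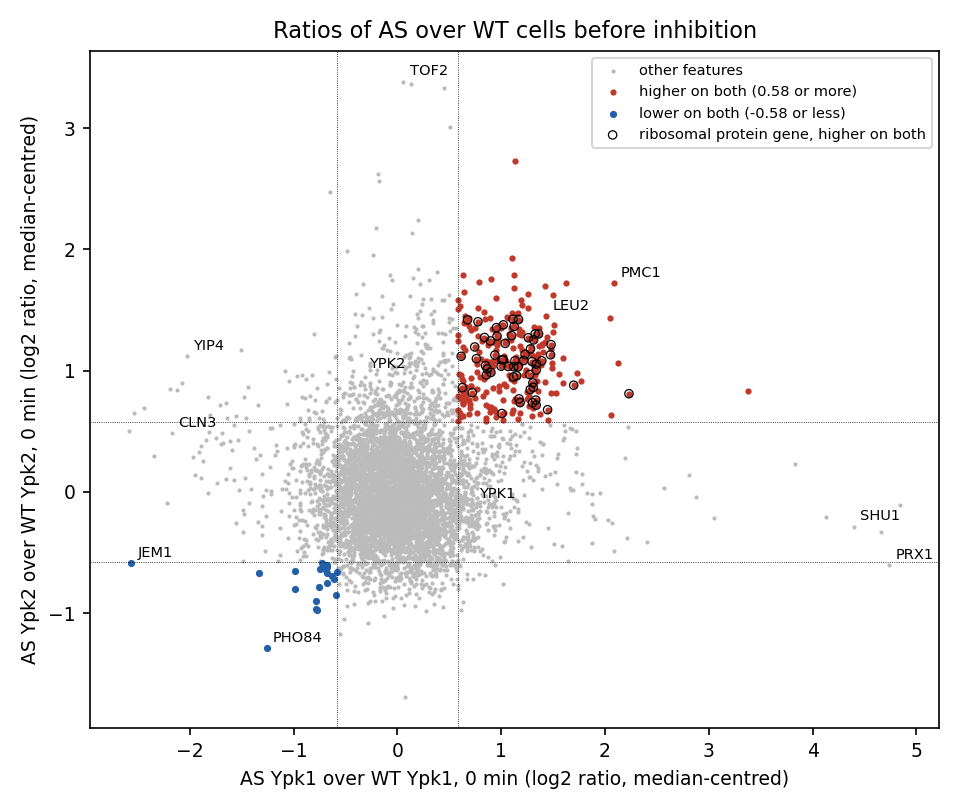
Each point is a feature, with its median-centred log2 ratio of AS over WT on the Ypk1 0 min array (x axis) and on the Ypk2 0 min array (y axis). Dotted lines mark 0.58 and -0.58. The 267 shared higher features fill the upper right corner, 57 of them ribosomal protein genes (black rings), while the most extreme points lie along the axes, on one array only.

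Genes of the protein synthesis machinery made up the largest named block of the shared higher genes. Of 137 cytosolic ribosomal protein genes, which encode the structural proteins of the ribosome, 57 (41.6%) were higher on both arrays and 0 were lower on both, against 4.26% and 0.351% of all features. The large subunit had 34 of 81 and the small subunit 23 of 56. The median ratio of all 137 was 0.68 on the Ypk1 and 0.65 on the Ypk2 0 min array, where the median of all features is 0, and 0.13 on the array of the WT strains. RPL12B reached 2.23 and 0.81, RPL21A 1.70 and 0.88, and RPL7B 1.33 and 1.30. The group was not uniform, since 8 members were lower on the Ypk1 array, among them RPS30B (-0.92), RPS24B (-0.89) and RPL30 (-0.81), and 1 on the Ypk2 array, RPL2A (-0.70).

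Many ribosomal proteins are encoded by pairs of near-identical genes, which array probes may not separate, so values of single copies are uncertain. Of 59 such pairs, 9 had both copies and 29 had 1 copy among the shared higher genes. The copies of a pair differed by a median of 0.72 on the Ypk1 array and 0.59 on the Ypk2 array. RPL37A and RPL37B were alike, at 1.48 and 1.30 on the Ypk1 array and 1.13 and 1.08 on the Ypk2 array. RPL1A was at 1.39 and 1.08 while RPL1B was at -0.37 and -0.34. RPS24A was at 1.28 and 1.18 and RPS24B at -0.89 and 0.56, a gap of 2.17 on the Ypk1 array and 0.62 on the Ypk2 array.

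Among 40 translation factors, 8 were higher on both arrays (20.0%, against 4.26% of all features) and 0 were lower on both (0.351%). This list was drawn up after the 0 min values were seen, so its count is a description only. The 8 lent no weight to the ribosomal protein count. The 8 included the elongation factor 1-alpha genes TEF1 (1.07 and 1.30) and TEF2 (1.11 and 1.19) and the elongation factor 2 gene EFT1 (1.14 and 1.08). YEF3 (0.93 and 1.23), which encodes the fungal elongation factor 3, and HYP2 (1.11 and 1.48), which encodes eIF5A, were also among them. The other shared members were STM1, TEF4 and TIF34. The median of the list was 0.23 on each array, and -0.01 on the Ypk2 array without centring. Members lay on both sides, with 10 higher and 5 lower by 0.58 on the Ypk1 array, 16 higher and 2 lower on the Ypk2 array, and 16 of 40 past it on neither. EFT2, the second elongation factor 2 gene, was at -0.74 and 0.35, and EFB1, of elongation factor 1, at -1.30 and -0.36. TEF1 with TEF2 and EFT1 with EFT2 are near-identical copies as well.

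Genes that build ribosomes were not among the shared higher ones. Of 50 ribosome biogenesis genes 0 were higher on both arrays, near what 4.26% of all features gives for a list of this size. Lower on both were 2, against 0.351% of all features. Below 0 on both lay 28, for which no share of all features was taken. The 2 shared lower genes were UTP7 (-0.68 and -0.62), of the small subunit processome, and DBP9 (-0.68 and -0.61), an RNA helicase of large subunit assembly. Of 67 mitochondrial ribosomal protein genes 0 were higher and 1, MRPS16 (-0.69 and -0.64), was lower on both. The 0 is again near what 4.26% of all features gives for such a list. Relative to all features, the medians of these groups were -0.14 and -0.27 for ribosome biogenesis and -0.14 and -0.10 for the mitochondrial ribosome, and without centring both medians on the Ypk1 array were 0.09. Those of the cytosolic ribosomal protein genes remained above 0 without centring, at 0.91 and 0.41.

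Core histone genes had 4 of 8 members higher on both arrays, the H4 genes HHF1 (0.75 and 1.35) and HHF2 (1.40 and 1.16), the H3 gene HHT2 (0.95 and 1.60) and the H2A gene HTA1 (1.03 and 1.12). HTB1, an H2B gene, was at 1.16 on the Ypk1 and at -0.17 on the Ypk2 array. The remaining members ranged from -0.31 to 0.76. On the WT array these 8 genes had a median of -0.22, with 0 at 0.58 or more (10.4% of all features) and 2 at -0.58 or less (11.8%). Of 14 cyclin genes with SIC1 among them and of 29 replication and repair genes, 0 were shared in either direction, which is near the 4.26% and 0.351% of all features.

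**Figure D2:**
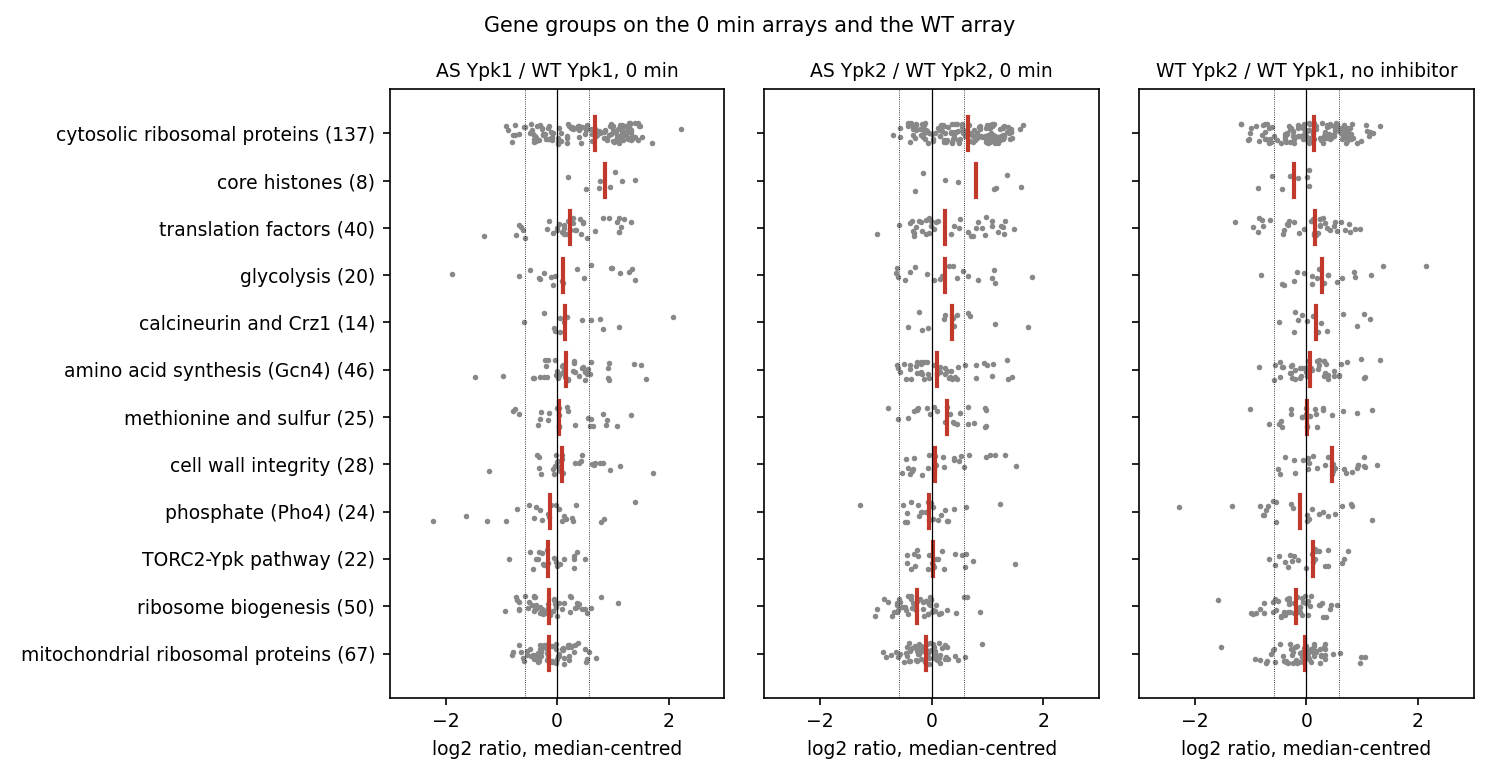
Every gene of 12 groups (rows, with the number of genes) is a grey point at its median-centred log2 ratio on the Ypk1 0 min array, the Ypk2 0 min array and the array of the WT strains, and the red bar is the group median. Ribosomal protein genes (0.68 and 0.65) and core histones (0.86 and 0.80) have medians to the right of the dotted 0.58 line on both 0 min arrays, with 0.13 and -0.22 on the WT array.

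Several abundant metabolic enzymes and chaperones were shared as well. Of 20 glycolysis genes 5 were higher on both arrays (25.0%, against 4.26% of all features). They were FBA1 (1.29 and 1.13), the aldolase, PDC1 (1.34 and 1.11) and PDC5 (1.13 and 1.79), pyruvate decarboxylases, PGI1 (0.96 and 1.08) and ADH1 (0.98 and 0.83). GPM1, the phosphoglycerate mutase, was lower on both (-0.68 and -0.61), and CDC19, the main pyruvate kinase, was at -1.89 and 0.38, so the pathway did not move as one. Of 25 chaperone genes 5 were higher (20.0%), SSA2, SSB1, SSB2, SSE1 and SIS1, with SSB1 at 1.15 and 1.47. Of 46 amino acid synthesis genes 4 were higher (8.7%). They were HIS4 (1.51 and 1.37), HOM2 (1.60 and 1.10), ARG1 (0.91 and 1.35) and ADE1, a purine synthesis gene on this list (0.58 and 0.79). These list counts were not tested. The medians of the amino acid list were 0.16 and 0.10, and -0.14 on the Ypk2 array without centring, so this list as a whole lay near the median of all features.

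The 12 leading shared higher features, ranked by the smaller of the 2 ratios, were PMC1, DCG1, DAL3, RNQ1, LEU2, MRH1, HIS4, YDR365W-A, GSP1, CDC36, SNL1 and RPL7B. PMC1, the calcium pump of the vacuole and a target of calcineurin signalling, led with 2.09 on the Ypk1 and 1.72 on the Ypk2 0 min array. It stood at 0.12 on the WT array, at 0.10 and -0.79 at 15 and 60 min of the Ypk1 series and at 3.37, -0.16 and 0.17 in the Ypk2 series, so the high value was seen at 0 min and once more. RNQ1 (2.05 and 1.44) encodes a prion protein, GSP1 (1.50 and 1.32) the Ran GTPase of nuclear transport and CDC36 (1.32 and 1.36) a subunit of the Ccr4-Not complex. Among 14 calcineurin genes CMK2 (1.11 and 0.68), a calmodulin-dependent kinase, and RCN2 (0.60 and 0.65), a regulator of calcineurin, were also shared. With PMC1 this made 3 of 14 (21.4%, against 4.26% of all features), and the list had medians of 0.15 and 0.37. DAL3 (1.50 and 1.62), an enzyme of allantoin degradation, and DCG1 (1.62 and 1.72) were 2 of 20 genes on the nitrogen catabolite list to be shared. MRH1, a plasma membrane protein, was at 1.43 and 1.69 at 0 min and at -1.90 and -1.37 at 60 min.

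LEU2, an enzyme of leucine synthesis, was at 1.44 and 1.45. Its ratio was above 0.58 on every one of the 9 arrays, from 0.99 at 30 min of the Ypk1 series to 2.46 on the array of the WT strains, where both channels hold cells with a WT kinase. Its later mean passed the limma test in both series, at 1.60 ± 0.24 (SE, adjusted p = 0.00362) for Ypk1 and 1.36 ± 0.24 (SE, adjusted p = 0.0105) for Ypk2. The other marker genes differed between the 0 min arrays, with HIS3 at -1.06 and 0.73, TRP1 at -0.01 and 0.81 and URA3 at 0.04 and 0.55. MET17 was at 1.07 and 0.97.

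The 22 shared lower features had smaller ratios. PHO84, the high-affinity phosphate transporter, was lowest by the ranking, at -1.26 and -1.29, and was lower still later, at -2.64, -3.13 and -2.81 with Ypk1 and -2.33, -2.22 and -1.75 with Ypk2. PHO12, an acid phosphatase of the same regulon, was at 1.40 and 1.22, and of 24 phosphate genes no other was shared. PHS1, a dehydratase of very long chain fatty acid synthesis, was at -0.99 and -0.80, and MET14, a kinase of sulfate assimilation, at -0.75 and -0.78. The mitochondrial GTP/GDP carrier gene GGC1 was at -0.78 and -0.97, TAF11, a subunit of TFIID, at -1.33 and -0.67, and PSK1, a PAS domain kinase, at -0.99 and -0.65. The other leading members were YPR076W, GPB2, PUN1, YNL179C, MRPS16 and TMA7. JEM1, a chaperone of the endoplasmic reticulum named here after its values were seen, was at -2.56 and -0.59.

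**Figure D3:**
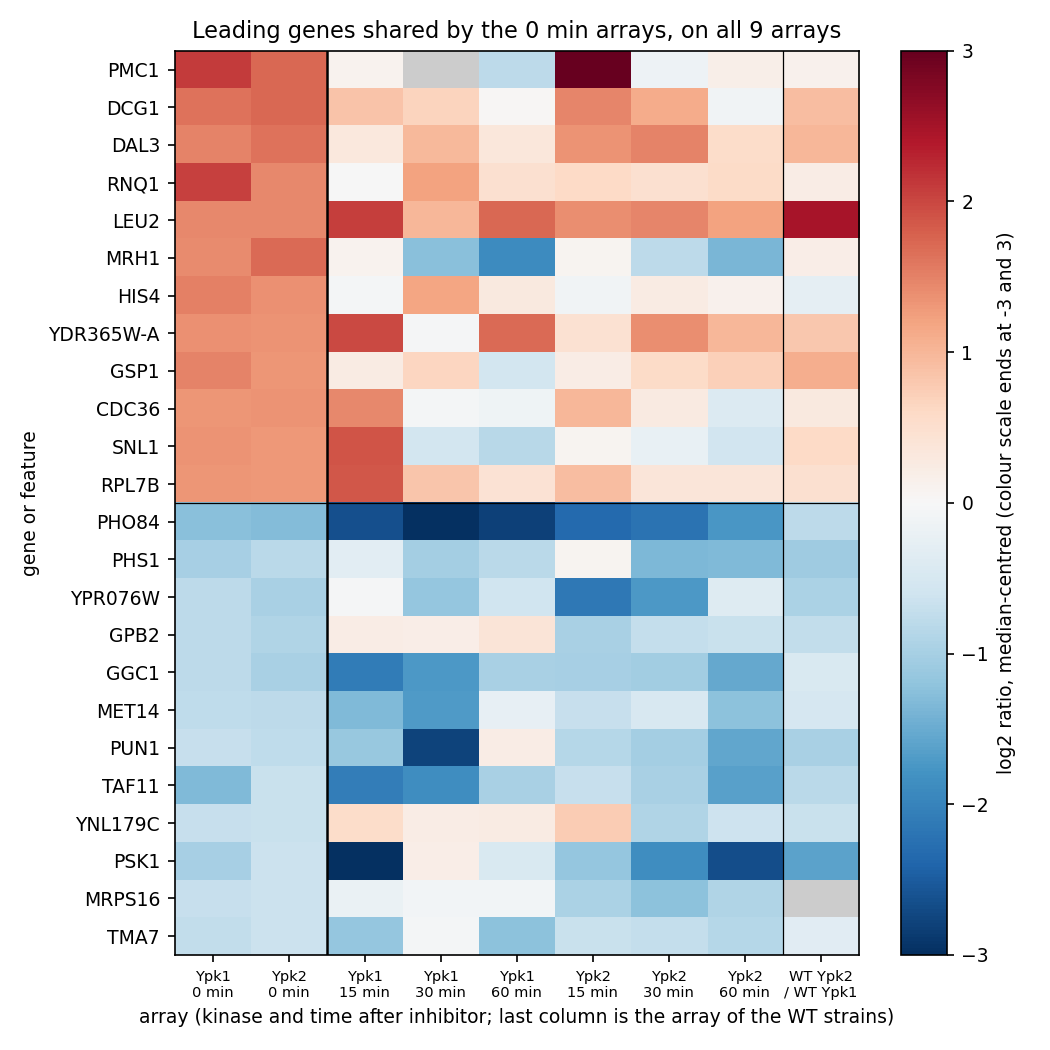
Colour gives the median-centred log2 ratio of the 12 leading shared higher and 12 leading shared lower genes (rows) on the 9 arrays (columns), with grey for a missing value. The first 2 columns are the 0 min arrays that chose the genes. LEU2 is red and PHO84 blue in every column, whereas PMC1 and MRH1 are not red throughout.

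Of 22 genes of the TORC2-Ypk pathway itself, 0 passed 0.58 in the same direction on both 0 min arrays, a count near the share of all features (4.26% higher and 0.351% lower). On the Ypk1 array LAC1, a ceramide synthase subunit, was lower (-0.86). On the Ypk2 array 4 were higher, RHO1 (1.49), the GTPase of cell wall synthesis, ORM2 (0.73), a regulator of sphingolipid synthesis, SLM1 (0.61) and GPD1 (0.60), against 12.3% of all features. The same 4 stood at 0.36, 0.50, -0.27 and -0.49 on the Ypk1 array. Of 28 cell wall integrity genes 3 were shared and higher (10.7%, against 4.26% of all features). They were FKS1 (1.73 and 0.98), a glucan synthase, CCW14 (0.77 and 1.05) and SVS1 (0.95 and 0.66). SLT2, the kinase at the end of that cascade, was at -1.23 and 0.52. The ergosterol (25), iron (26), proteasome (32) and YRF1 (7) lists had 0 shared members, near what 4.26% of all features gives for lists of these sizes.

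The later arrays and the array of the WT strains had no part in choosing the shared features, though they hold the same strains. The shared higher features had medians of 1.09 and 1.07 at 0 min, where they were chosen to be high. A fall from these medians is thus in part built in. In the Ypk1 series their medians were then 1.33, 0.43 and 0.42 at 15, 30 and 60 min, and in the Ypk2 series 0.67, 0.37 and 0.31. By limma the later mean was higher for 86 of 264 (32.6%, against 10.9% of all features) with Ypk1 and for 62 (23.5%, against 6.98%) with Ypk2, and lower for 5 and 4. On the WT array their median was 0.49, and 116 of 267 were at 0.58 or more (43.4%, against 10.4% of all features). That array holds no AS cells but shares the WT Ypk1 strain in Cy3 with the Ypk1 0 min array. Its Cy5 channel holds the WT Ypk2 strain, which is in Cy3 on the Ypk2 0 min array. The share of all features is thus not what an absence of relation would give, and nothing is read from the count. Features higher on the Ypk1 array only had 26.3% there and those higher on the Ypk2 array only 19.2%.

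The ribosomal protein genes were also followed apart from the other shared higher features. The median of the 57 shared ones in the Ypk2 series was 1.08 at 0 min and then 0.28, -0.27 and -0.34, below 0 from 30 min on, and it was 1.13, 1.39, 0.32 and -0.01 in the Ypk1 series. The other 210 shared higher features had medians of 1.07, 0.77, 0.59 and 0.57 with Ypk2 and 1.05, 1.26, 0.51 and 0.59 with Ypk1. The later mean was called higher for 9 of the 57 ribosomal protein genes with Ypk1 and for 0 with Ypk2, and lower for 0 and 1. It was called higher for 77 and 62 of the 207 others in the fit. Of all features 10.9% were called higher with Ypk1 and 6.98% with Ypk2. Nothing is read from the counts of the 57. The 80 ribosomal protein genes that were not shared had medians of 0.21, -0.47, -0.49 and -0.58 with Ypk2 and 0.03, 0.15, -0.35 and -0.29 with Ypk1. Of the 80, the later mean was called lower for 11 with Ypk1 (10.5% of all features) and 12 with Ypk2 (4.73%). It was called higher for 3 and 1. The subgroups were split by their 0 min values, so a fall from the 0 min median of the shared ones is in part built in. All 137 ribosomal protein genes, not split, had medians of 0.65, -0.05, -0.35 and -0.50 with Ypk2. With Ypk1 the 137 were at 0.68, 0.73, -0.06 and -0.12. The subgroups were set side by side without a test of the difference.

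**Figure D4:**
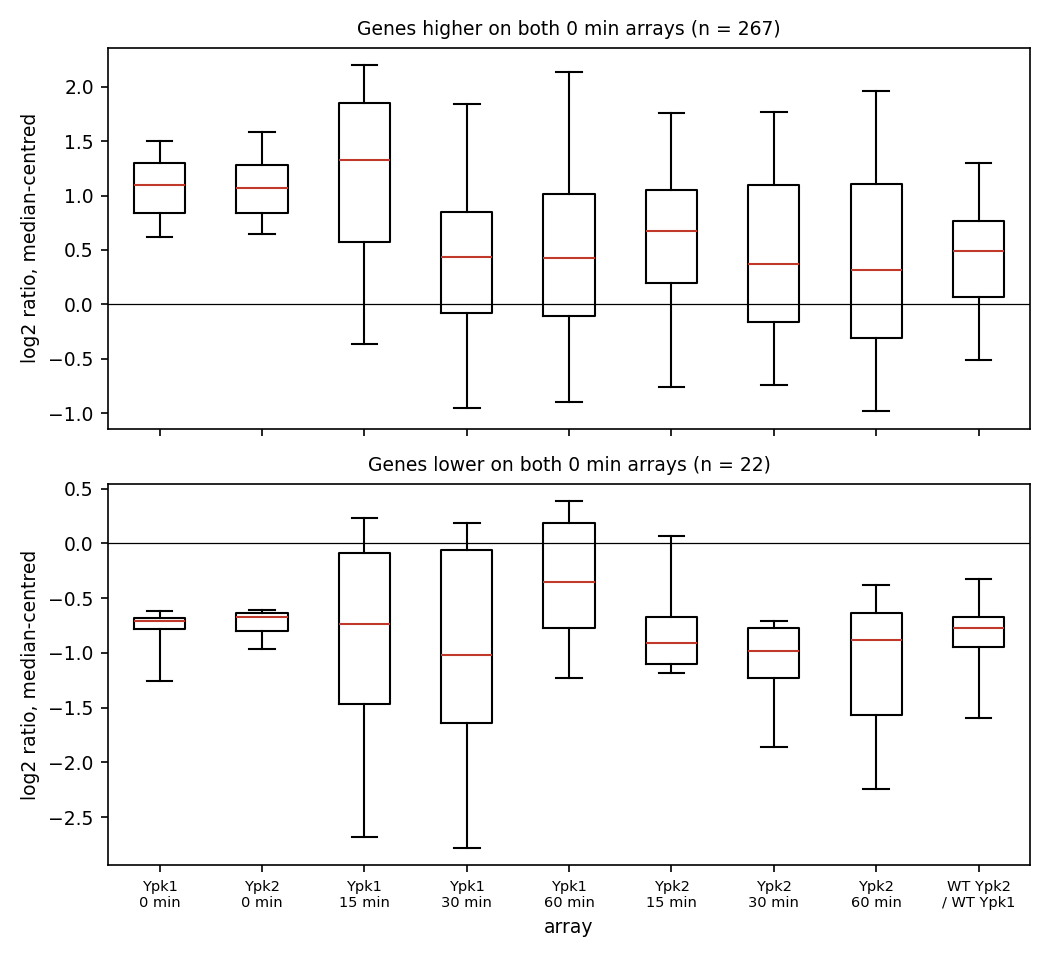
Boxes show the quartiles and median (red) of the median-centred log2 ratio, and whiskers the 5th to 95th percentile, for the 267 shared higher (top) and 22 shared lower features (bottom) on each of the 9 arrays. The genes were chosen on the first 2 arrays. The medians keep their side of 0 on the other 7, including the array of the WT strains (0.49 and -0.78).

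Of the 264 shared higher features with a value on the 7 other arrays, 87 were above 0 on each (33.0%, against 10.6% of all features), and 28 were at 0.58 or more on each, as were 1.82% of all features. These 28 held ACT1, actin, BMH1, a 14-3-3 protein, SSA2, a chaperone, TAL1, transaldolase, POR1, the mitochondrial porin, ITR1, an inositol transporter, UBI4, polyubiquitin, and the wall protein gene CWP2. Over all 9 arrays ACT1 ranged from 0.69 to 1.85 and BMH1 from 0.86 to 2.05. KXD1 covered 1.06 to 5.38. Among the shared lower features PHO84 and TAF11 were at -0.58 or less on all 7 others (2 of 20, against 0.563% of all features). The 8 genes and KXD1 were picked from the 28 after their values were seen.

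The 21 shared lower features in the fit had 6 with a lower later mean in the Ypk1 series (28.6%, against 10.5% of all features) and 10 in the Ypk2 series (47.6%, against 4.73%), and 0 with a higher one. GGC1 passed in both, at -1.60 (adjusted p = 0.0044) and -1.19 (adjusted p = 0.0217), by limma with Benjamini-Hochberg adjustment. PHO84 passed at -2.86 ± 0.21 (SE) and -2.10 ± 0.21. On the WT array 16 of 21 were at -0.58 or less (76.2%, against 11.8% of all features, with the same strains shared). PHO84 was at -0.78 there and PHS1 at -1.06.

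A further trait of the shared higher features was their names. A systematic name with a letter suffix after a hyphen, given to features added to the map between older ones, belonged to 41 of 267 (15.4%, against 3.32% of all features). YDR365W-A was at 1.37 and 1.35, and YER138W-A was at 1.12 and 1.68. Next to another shared higher feature in the order of names lay 35 (13.1%), and of all features 8.18% lay next to one. The annotation used here does not name the product of most such features, so no role is given. Close copies among them were not looked for, so the 41 and the 35 may count copies of one sequence more than once.

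The test of the mean of both 0 min ratios against 0, with the spread taken from the later arrays, called 3 of 6220 features (0.0482%), all higher, and 399 had an unadjusted p under 0.05. They were YHL008C (2.37 ± 0.26, SE), YRF1-3 (2.16 ± 0.25), a subtelomeric helicase gene, and SHU1 (2.05 ± 0.25), a gene of DNA repair, with limma adjusted p-values of 0.0405, 0.0405 and 0.0496. Each owed its mean to the Ypk1 array, and none of the 289 shared features was called. The spread holds any change between the later times, so the number of calls does not measure how many features differ at 0 min. PHO84 had a mean of -1.27 ± 0.26 (adjusted p = 0.34) and LEU2 one of 1.44 ± 0.29 (adjusted p = 0.34). Leaving out 15, 30 or 60 min left 0 calls each time. When the 2 arrays alone were fitted as repeats, 216 features were called (211 higher, 3.37% of features, and 5 lower, 0.0798%), of which 183 were shared higher and 3 shared lower features; these same ratios chose the shared features, so the count is a description.

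What was seen on one array only was larger in number. On the Ypk1 array 895 features passed 0.58 without passing it in the same direction on the Ypk2 array (452 higher and 443 lower, but 1099 and 159 without centring). On the Ypk2 array it was 784 (502 higher and 282 lower, but 189 and 1084 without centring). The 895 and the 784 both hold the 64 features that passed 0.58 on both arrays in opposite directions. The deposited medians of the arrays were 0.23 and -0.24, which centring removes. Of the features higher on the Ypk1 array only, the later Ypk1 mean was called higher for 18.9% (10.9% of all features) and lower for 4.67% (10.5%), and the later Ypk2 mean higher for 8.89% (6.98%). Of those higher on the Ypk2 array only, the later Ypk2 mean was called higher for 23.2% (6.98% of all features) and lower for 2.61% (4.73%), and the later Ypk1 mean higher for 21.8% (10.9%) and lower for 7.82% (10.5%).

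The most extreme ratios seldom recurred. Of 8 features at 3 or more on the Ypk1 0 min array 2 passed 0.58 in either direction on the Ypk2 0 min array. HSE1 did so in the same direction (0.83) and PRX1 in the opposite one (-0.61). Of the 8, 0 reached 3 on a later Ypk1 array. Of 4 features at 3 or more on the Ypk2 0 min array 0 passed 0.58 on the Ypk1 0 min array, and 1 reached 3 on a later Ypk2 array. YHL008C was at 4.85 and then at -0.78, 0.04 and -0.35, and it was at -0.11 on the Ypk2 0 min array. PRX1, a mitochondrial peroxiredoxin, was at 4.74, then at 0.54, 1.65 and 1.01, and was at -0.61 on the Ypk2 0 min array. The difference between the 0 min ratios was called for these and for YRF1-3 and SHU1, 4 features in all (0.0643%), and for 0 without 15, 30 or 60 min. In the order of names YRF1-3, HSE1 (3.38 and 0.83), SHU1 and YHL008C fell within 9 consecutive features, and the 5 between them ranged from -0.48 to 0.58 on the Ypk1 array. YRF1-3 is on chromosome VII and the others are on chromosome VIII, so it adjoins them in the order of names only.

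Further features high on the Ypk1 array only were HKR1 (4.13), a mucin-like osmosensor, YER138C (3.83), HSU1 (3.05) and MAL33 (2.88), a maltose gene regulator, and all 4 lay between -0.22 and 0.23 on the Ypk2 array. On the low side, PCH2, a meiotic checkpoint gene, was at -2.53 and 0.65, FYV5 at -2.44 and 0.69 and TYE7, a regulator of glycolysis genes, at -2.12 and 0.84. PCH2 was at 4.40 at 15 min of the same series, and TYE7 at -0.74, -2.84 and -1.47. Of the 2, TYE7 stayed below 0 with Ypk1 and PCH2 did not.

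On the Ypk2 array only, TOF2 (3.39), a nucleolar protein, AUS1 (3.36), a sterol importer, and SEN34 (2.47), a tRNA splicing subunit, were far higher than on the Ypk1 array (0.06, 0.13 and -0.65). AUS1 was at 0.01, 1.31 and 1.96 at the later times of Ypk2 and TOF2 at 0.05, -0.38 and -0.70. CLB4, a B-type cyclin, was at 3.33 against 0.45. The low side was shallower, with MRX16 at -1.69 (0.08 on the Ypk1 array), NOP7, of large subunit assembly, at -0.97 (0.62) and ALG9, of N-glycan synthesis, at -0.91 (0.64).

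Some of the low features of the Ypk1 array lay close together, which was noticed after their values were seen. Of 71 features on the left arm of chromosome I, 16 (22.5%) were at -1 or lower on that array, against 1.60% of all features (100 in number) and between 0 and 7.46% on the 31 other arms. On the Ypk2 0 min array it was 0 of 71, with 0.0957% of all features. At 15, 30 and 60 min of the Ypk1 series the share was 5.63%, 9.86% and 1.41%, against 12.8%, 9.16% and 9.03% of all features, and on the WT array it was 14.1%, against 2.35%. At the later times of the Ypk2 series it was 5.63%, 7.04% and 14.1%, against 3.69%, 4.24% and 6.62%. The 16 were spread along the arm between features with ratios above 0. At the high end 7 of the 71 were at 1 or higher on the Ypk1 0 min array, against 4.39% of all features. The median of the arm on that array was -0.16.

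Among the 16 were CLN3, the G1 cyclin that starts the cell cycle (-2.17, and 0.48 on the Ypk2 array), BDH2, a dehydrogenase gene (-2.19 and 0.85), ECM1 (-2.34 and 0.29), CDC19, SSA1, a chaperone (-1.48 and -0.33), EFB1 and TFC3, a subunit of the RNA polymerase III factor TFIIIC (-1.49 and -0.15). RBG1 was at -1.65 and reached 4.12 at 15 min. Without the arm the shared higher features numbered 265, the shared lower 20, and the lower features of the Ypk1 array only 422 in place of 443. Whether the probes of this arm differ from others on the array was not tested.

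**Figure D5:**
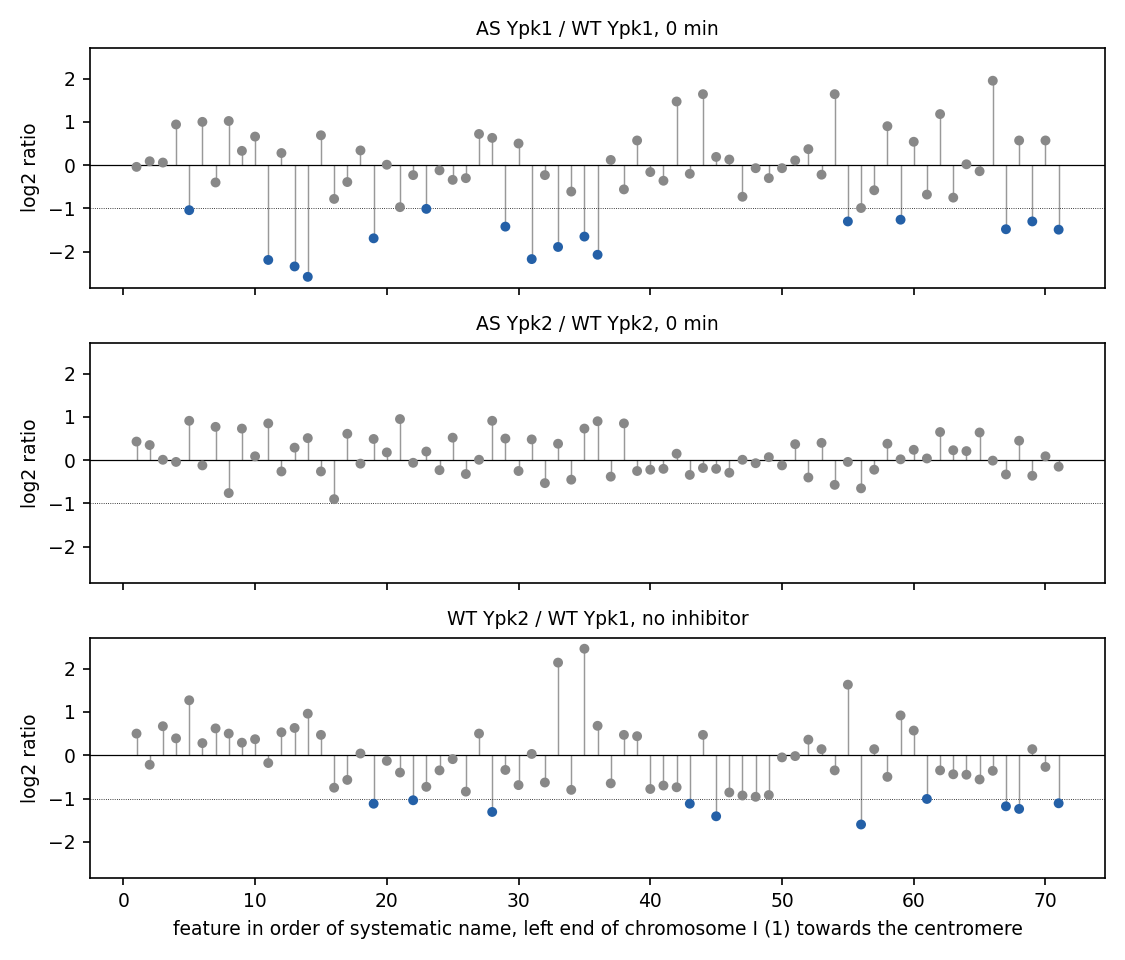
The 71 features of the left arm of chromosome I are placed in order of their systematic names (x axis), with the median-centred log2 ratio (y axis) on the Ypk1 0 min, Ypk2 0 min and WT arrays. Blue points are at -1 or lower, 16 on the Ypk1 0 min array, 0 on the Ypk2 0 min array and 10 on the WT array.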

How the data were processed

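The authors deposited a table of log2 ratios of Cy5 over Cy3, 1 value for each feature and array, which is the only measurement used here. The log2 scale and the direction were read from the values and from YPK1 and YPK2 on the WT array. The scanner, background correction and normalization are not given in the sources used here. The number of arrays limits the precision.

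Each array was centred on its median. Of 6268 features 5777 could be tied to the R64 annotation through their systematic names, and 491 are called by that name. Shared features were counted at 0.58 with no test. The mean and the difference of the 0 min ratios and the later means were tested with limma 3.58.1 (R 4.3.3) on the 8 AS over WT arrays, over 6220 features, with separate means per kinase for 0 min and for the 3 later arrays. The 0 min arrays have no replicate and are assumed to vary like the later arrays, which leaves 4 residual degrees of freedom. Adjusted p-values are Benjamini-Hochberg, threshold 0.05.

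The members, the 30 gene lists (855 of 858 genes measured) and the rules were chosen with earlier results of these data known, and the translation factor and nitrogen catabolite lists after the 0 min values were seen. Named were YPK1, YPK2 and marker genes, the 12 leading shared genes each way, the 8 with the largest gap each way on 1 array, up to 6 with opposite signs, list members passing on both arrays or among the 6 leading ones, and genes passing a test; others are descriptions picked after their values were seen. Promoter motifs were not analysed here.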

Additional observations from a re-analysis of the deposited data

Results flagged for a closer look

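The 0 min ratios of 64 of 6268 features passed 0.58 in opposite directions, 14 higher with Ypk1 and 50 higher with Ypk2. Of all features 11.5% were higher and 7.42% lower on the Ypk1 array, and 12.3% and 4.85% on the Ypk2 array. Lists of these sizes overlap in opposite directions by their size alone, so no difference between the kinases is read from the count. With 1 array each, the count of the 64 was not tested. The largest of these by the smaller ratio were YOR343C-A (-1.51 on the Ypk1 and 1.17 on the Ypk2 array), YIP4 (-2.03 and 1.12), CHA1 (-1.09 and 1.00), a serine deaminase, AIM2 (-0.97 and 0.95), RPS30B (-0.92 and 0.96) and YAL065C (-1.04 and 0.91), and AIM2 and YAL065C are on the left arm of chromosome I. The limma test of the difference between the kinases called 4 genes, each higher on the Ypk1 array. The difference was 5.34 for PRX1 (SE 0.65, adjusted p = 0.0345), 4.98 for YRF1-3 (SE 0.49), 4.96 for YHL008C (SE 0.52) and 4.68 for SHU1 (SE 0.51), the last 3 with an adjusted p of 0.0176. The lone 0 min arrays carry these differences, and the calls were lost when 15, 30 or 60 min was left out.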

How the results depend on the processing

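Each count rests on 1 array per kinase, and the threshold sets its size. The shared features numbered 289, and 269 without centring, of which 211 were the same features. They numbered 506 with arrays scaled to one spread and 551 after quantile normalization, both with all 289 among them, 100 at a threshold of 1, 530 at 0.4 and 157 without the genes past 0.58 the same way on the WT array. Features on the Ypk1 array only numbered 895, and 1492 scaled, 1596 quantile normalized, 275 at 1 and 1587 at 0.4. Features on the Ypk2 array only numbered 784, and 1273 without centring, 1487 scaled, 1594 quantile normalized, 203 at 1 and 1505 at 0.4.

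Calls for the mean of both 0 min ratios numbered 3, and 0 without centring (374 at an unadjusted p under 0.05), 344 scaled, 313 quantile normalized, 165 with array weights and 216 on the 0 min arrays alone; leaving out a later time gave 0 to 0 by limma (301 to 589 unadjusted). Calls for the difference numbered 4, and 46 scaled, 12 quantile normalized and 8 with array weights, and 0 to 0 with a later time left out (115 to 342 unadjusted). Calls for the later mean numbered 1335 with Ypk1 and 257 to 1163 with a time left out, and 728 with Ypk2 and 0 to 756; with Ypk2 they were 1214 scaled, 1155 quantile normalized and 4157 with array weights, whose estimation stopped before it converged. Without centring 22.5% and 26.9% of the later calls were higher in place of 51.0% and 59.6%. Without centring 23 list medians and 6 named ratios changed sign, all of them 0.23 or less in size when centred; scaling and quantile normalization changed 0 signs. All list medians moved by less than the median of limma's moderated standard deviations of their genes, and 47 and 40 of 136 named ratios moved by more than the gene's own with scaled and quantile normalized arrays. Removing ribosomal protein genes (232 shared) or the left arm of chromosome I (285), chosen after the data were seen, kept the shared count within 1.5 times. No paired analysis was possible because each group has 1 array and the labels give no replicate numbers.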

Other observations

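The values of further groups on the WT array and on the 0 min arrays were as follows, with no test of the difference between arrays. Of 40 general stress genes 21 were at 0.58 or more on the WT array (median 0.61; 10.4% of all features), and 9 and 11 on the Ypk1 and Ypk2 0 min arrays (medians 0.22 and 0.27; 11.5% and 12.3% of all features), with 4 shared, SPI1 (0.64 and 1.65), HOR7 (1.09 and 0.93), GND2 (1.30 and 0.70) and ROQ1 (1.03 and 0.89). Of 36 respiratory chain and ATP synthase genes 19 passed on the WT array (median 0.64) and 8 and 10 at 0 min, with ATP14 (0.62 and 1.12) shared. RSB1, a membrane protein of long-chain base resistance, was at 2.06 and 0.63 at 0 min and at -3.03 on the WT array.

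Mating genes lay near 0, with medians of -0.13 and 0.04 over 30 genes, and 0.10 and -0.20 without centring. MF(ALPHA)1, a pheromone gene of alpha cells, was the shared member, at 1.12 and 0.75, and its later mean passed below 0, at -0.78 (limma adjusted p = 0.0397) with Ypk1 and -1.23 (adjusted p = 0.0125) with Ypk2. The receptor genes STE2 and STE3 were at -0.31 and -0.14 on the Ypk1 and -0.10 and 0.03 on the Ypk2 array. Of the 20 hexose transport genes HXT7 (0.59 and 1.58), HXT14 (1.02 and 0.59) and HXT17 (0.62 and 0.93) were shared and higher (15.0%, against 4.26% of all features). STD1, a regulator of glucose sensing on this list (-0.72 and -0.58), was shared and lower. HXT genes are close copies of one another, so their single values are uncertain.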
